A study of Drosophila melanogaster with 36 samples.

Results

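Glial marker transcripts are described here one by one in RNA of *Drosophila* heads, before and after the olfactory organs were cut away. They are 10 of the 17611 genes counted: *repo*, *nrv2*, *alrm*, *Eaat1*, *Gat*, *Gs2*, *wrapper*, *moody*, *Mdr65* and *Tret1-1*. The genes were taken from a list of known glial genes; the rule for the list uses no measured value, but it was drawn up with earlier results of these data known. Each was found in the files by its FlyBase identifier. All 10 passed the filter on low counts in every fit.

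Glia of the fly brain fall into types with separate tasks. Astrocyte-like glia enter the neuropil and clear transmitters, cortex glia wrap neuronal cell bodies, ensheathing glia enclose the neuropil, and the perineurial and subperineurial glia at the surface form the blood-brain barrier. After an axon is cut, glia are known to take up its debris with the engulfment receptor Draper. No transcript of the list is assigned to ensheathing glia alone.

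The study asked which transcripts are on ribosomes in severed axons that survive because the NAD+ synthase Nmnat is overexpressed. Antennae and maxillary palps were ablated, which removes the cell bodies of olfactory sensory neurons and leaves their severed axons in the brain, and heads were collected 7 days post ablation (7 dpa) or uninjured. Flies labelled dnmnatOE (w) carried orco-Gal4 over 5xUAS-dnmnat together with the ribosomal tag 5xUAS-GFP::RpL10Ab/+, flies called wild type (w) carried orco-Gal4/+ and the same tag, and background flies (w) carried orco-Gal4/+ with no tagged ribosome. For each of the 6 combinations of genotype and injury 300 animals were collected, and there were 3 input libraries of whole-head RNA and 3 libraries of RNA pulled down with anti-GFP beads, 36 libraries in all. All flies carried the orco-Gal4 driver, which is active in olfactory sensory neurons, so both the tag and the extra Nmnat were aimed at neurons. The 3 libraries of each group are named technical replicates in the labels, so the p-values measure the spread between these libraries, which may be technical. Age and sex are not given in the labels, and whether uninjured flies were as old as those at 7 dpa is not stated, so injury and age cannot be told apart.

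Inputs held 6628633 to 22329307 counts in genes and pulldowns 644358 to 2057294, so a pulldown value rests on far fewer reads. Among inputs, the 3 background libraries at 7 dpa were the shallowest, with 6628633 to 7414020 counts. All other inputs had 13613698 or more. How this depth bears on the calls in background was not tested. *Nmnat* was not called different between libraries labelled dnmnatOE and wild type, in inputs (log2 fold change 0.15 ± 0.18 (SE) uninjured and -0.23 ± 0.18 at 7 dpa) or in pulldowns (-0.99 ± 0.89 uninjured and 1.03 ± 0.97 at 7 dpa, each with 3 libraries against 3). More *Nmnat* was thus not detectable in the group named for it. Pulldowns held 0 to 42 counts of *Nmnat* per library, and the 95% interval there at 7 dpa was wide (-0.92 to 2.97). Whether a rise in olfactory sensory neurons alone would show in whole-head RNA was not tested. The study reported that severed axons of these neurons stayed preserved in dnmnatOE flies. Below, dnmnatOE stands for libraries labelled dnmnatOE. The injury labels did show in the inputs: 8 olfactory receptor genes together had 0.147 to 1.55 CPM (counts scaled to a common library size, with edgeR's normalization factors) at 7 dpa against 30.2 to 36.4 CPM uninjured in dnmnatOE, 0.677 to 3.997 against 30.04 to 35.7 CPM in wild type, and 2.83 to 3.45 against 18.5 to 21.7 CPM in background, and 4 of the 8 were at 0 in each group at 7 dpa.

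Whole-head inputs held every glial marker at a level that the counts resolve, with 105 to 10940 counts per gene and library. *Gs2*, which makes glutamine from glutamate, was the most abundant per length in all 3 uninjured genotypes, with 228 ± 7.503 CPM per kb (SD, n = 3) in dnmnatOE, 200.01 ± 15.8 in wild type and 202 ± 3.98 in background. In uninjured background heads it was followed by *Eaat1* (47.0 ± 1.48 CPM per kb), *nrv2* (36.4 ± 1.82), *Tret1-1* (34.6 ± 2.74), *alrm* (18.6 ± 2.22), *repo* (18.6 ± 0.255), *wrapper* (9.15 ± 1.03), *moody* (8.12 ± 1.24), *Gat* (7.65 ± 0.830) and *Mdr65* (2.61 ± 0.596, SD, n = 3 each). The libraries of *nrv2* and *Tret1-1*, of *alrm* and *repo*, of *wrapper* and *moody* and of *moody* and *Gat* overlapped in that order, and the other neighbours did not. At 7 dpa in dnmnatOE the order was a different one: *Tret1-1* came first with 93.9 ± 4.72 CPM per kb, ahead of *Gs2* with 82.6 ± 1.69 and *moody* with 48.4 ± 1.25, and none of these 3 overlapped.

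**Figure D1:**
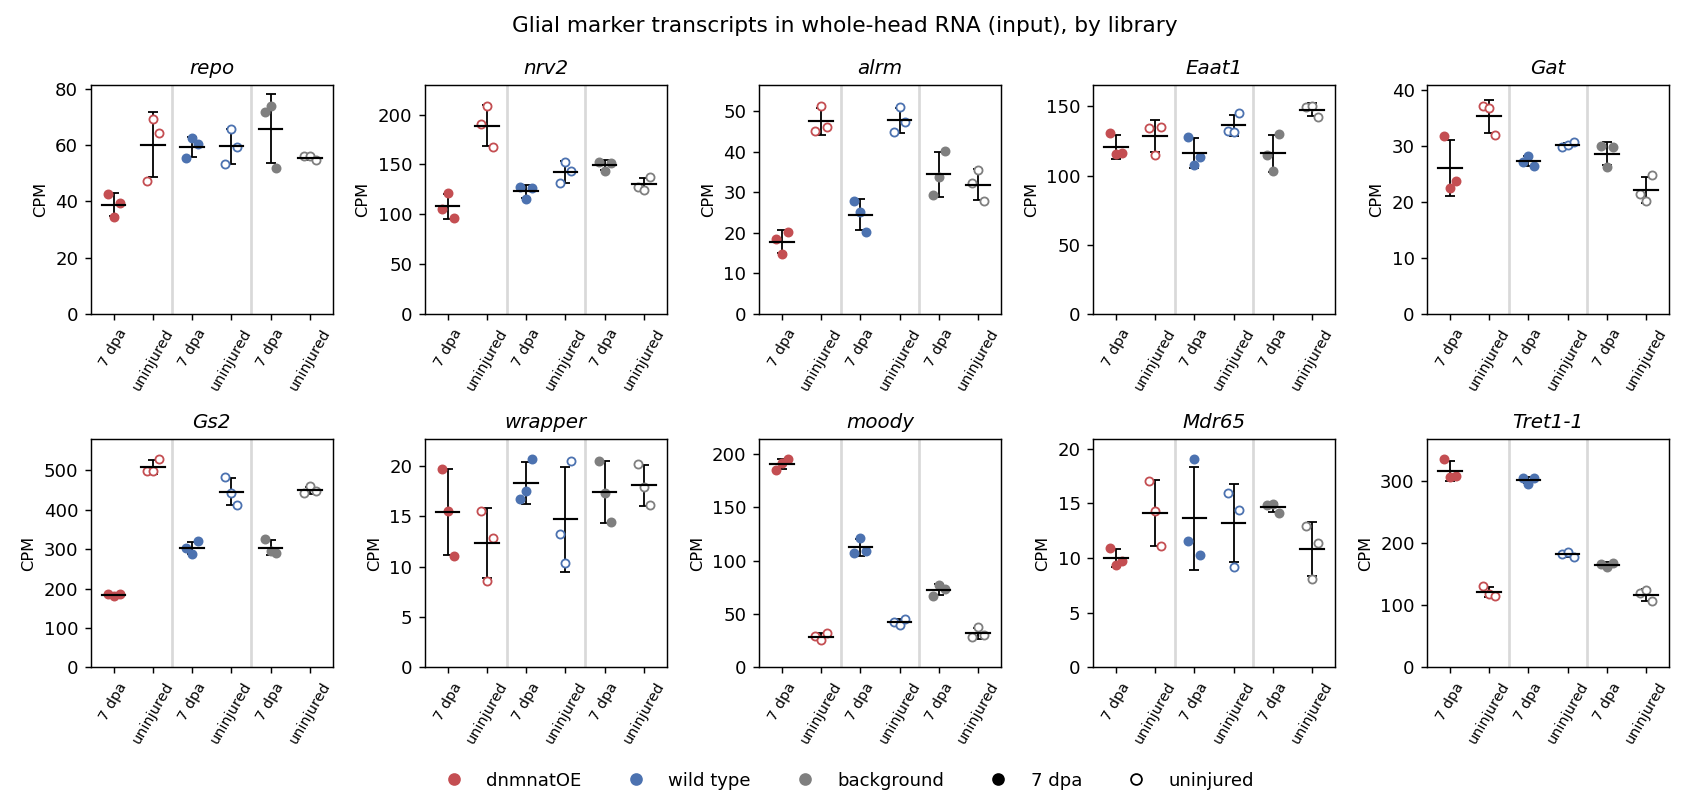
CPM of each glial marker transcript in the 18 input libraries. Each point is a library, filled at 7 dpa and open in uninjured heads, the line is the mean and the bar 1 SD of 3 libraries. *moody* and *Tret1-1* stand higher at 7 dpa in each genotype and *Gs2* lower, and *alrm* is lower in dnmnatOE and wild type.

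After ablation 2 of 3 surface glia transcripts rose in dnmnatOE and in wild type inputs and 1 of 3 in background, while 2 of 4 astrocyte transcripts fell in dnmnatOE, 1 of 4 in wild type and none in background. A transcript is called changed here when its adjusted p is at most 0.05 (quasi-likelihood test of edgeR, Benjamini-Hochberg adjustment over the 10437 genes tested in inputs) and its log2 fold change is above 0.6 or below -0.6. By that rule 6 of the 10 changed in dnmnatOE, where 50.7% of all genes tested did: 2 were higher (26.5% of genes) and 4 lower (24.2%). In wild type 3 of 10 changed, where 28.5% of genes did, 2 higher (17.8%) and 1 lower (10.7%). In background 1 of 10 changed, where 15.2% did, and it was higher (9.99%; 5.25% of genes were lower). These counts were near the share of all genes in each genotype. In whole heads, fewer cells of a type and less RNA per cell cannot be told apart.

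*moody* encodes a G protein-coupled receptor that subperineurial glia need for a tight barrier (FBgn0025631, chrX:2044292-2050120, Release 6 assembly). In dnmnatOE its inputs had 185, 192 and 195 CPM at 7 dpa, against 29.02, 25.6 and 32.1 CPM uninjured. In wild type they had 107, 122 and 109 CPM at 7 dpa, against 42.3, 39.6 and 45.7 CPM uninjured. In background they had 67.3, 77.5 and 73.2 CPM at 7 dpa, against 28.1, 37.5 and 30.4 CPM uninjured. The libraries at 7 dpa lay above all uninjured libraries of their genotype, and the 3 injured groups did not overlap each other. The log2 fold change was 2.72 ± 0.11 (SE) in dnmnatOE, with 6.14% of all genes tested changing further upward, 1.41 ± 0.11 in wild type and 1.18 ± 0.11 in background (adjusted p = 1.62e-27, 2.68e-16 and 7.74e-13 by edgeR with Benjamini-Hochberg adjustment).

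*Tret1-1*, the trehalose transporter that brings blood sugar into perineurial glia (FBgn0050035, chr2R:11665768-11674782), rose by less. Its inputs had 335, 307 and 308 CPM at 7 dpa in dnmnatOE, against 131, 119 and 114 CPM uninjured. In wild type the values were 305, 296 and 305 CPM at 7 dpa, against 183, 185 and 178 CPM uninjured. In background they were 167, 161 and 169 CPM at 7 dpa, against 119.9, 124 and 107 CPM uninjured. No library at 7 dpa overlapped the uninjured ones in any genotype, and the log2 fold changes were 1.38 ± 0.07 in dnmnatOE, 0.73 ± 0.07 in wild type and 0.50 ± 0.07 in background (SE, adjusted p = 9.94e-23, 2.39e-12 and 2.46e-07 by edgeR with Benjamini-Hochberg adjustment). The background value lay under the fold threshold and was not called. The remaining surface gene, *Mdr65*, encodes an ABC transporter that pumps foreign compounds out at the subperineurial barrier (FBgn0004513, chr3L:6240500-6245746). It was not called in any genotype, with log2 fold changes of -0.50 (95% interval -1.01 to 0.01) in dnmnatOE, 0.05 (-0.45 to 0.55) in wild type and 0.44 (-0.07 to 0.95) in background. Without the third uninjured library of dnmnatOE the value there was -0.65 and called. Its 18 inputs ran from 8.08 to 19.02 CPM.

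Among the astrocyte genes, *Gs2* (glutamine synthetase 2, FBgn0001145, chrX:11422832-11430197) had the clearest separation. Its dnmnatOE inputs had 187, 179.9 and 186 CPM at 7 dpa, against 499, 499 and 528 CPM uninjured. Wild type inputs had 303, 288 and 319.5 CPM at 7 dpa, against 483, 442 and 413 CPM uninjured. Background inputs had 325, 296 and 291 CPM at 7 dpa, against 443, 460.0 and 447 CPM uninjured. All injured libraries lay below all uninjured ones in each genotype, and at 7 dpa wild type and background overlapped while dnmnatOE lay below both. The log2 fold change was -1.46 ± 0.07 (SE) in dnmnatOE, which was called (adjusted p = 6.50e-26 by edgeR with Benjamini-Hochberg adjustment), and -0.56 ± 0.06 in wild type and -0.57 ± 0.06 in background, which passed the test (adjusted p = 2.13e-10 and 3.35e-10) but not the fold threshold. Without the third uninjured library of wild type the value was -0.61, and without the first 7 dpa library of background it was -0.62, both then called.

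*alrm*, a leucine-rich repeat protein made in astrocyte-like glia (FBgn0039332, chr3R:25381065-25382781), fell in the 2 genotypes with tagged ribosomes. It had 18.5, 14.6 and 20.2 CPM at 7 dpa in dnmnatOE, against 45.0, 51.4 and 46.2 CPM uninjured. Wild type libraries had 27.8, 25.3 and 20.3 CPM at 7 dpa, against 44.8, 51.1 and 47.3 CPM uninjured. In background the values were 29.4, 33.8 and 40.3 CPM at 7 dpa, against 32.3, 35.5 and 27.9 CPM uninjured, and these overlapped. The log2 fold change was -1.41 ± 0.16 in dnmnatOE, -0.97 ± 0.15 in wild type and 0.11 ± 0.15 in background (SE, adjusted p = 2.86e-11, 4.44e-07 and 0.681 by edgeR with Benjamini-Hochberg adjustment). Uninjured background heads were already lower in *alrm* than those of wild type, with a log2 fold change of 0.58 ± 0.15 for wild type over background that stood just under the threshold. It was called at 0.67 without the second uninjured library of background and at 0.63 without the first of wild type.

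The other 2 astrocyte genes, both transporters, were not called after ablation. *Eaat1*, which takes up glutamate (FBgn0026439, chr2L:9333567-9341925), had 131, 115 and 116 CPM at 7 dpa in dnmnatOE, against 135, 115 and 135 CPM uninjured. Its log2 fold change was -0.09 (95% interval -0.27 to 0.09) in dnmnatOE, -0.23 (-0.41 to -0.05) in wild type and -0.35 (-0.53 to -0.16) in background. *Gat*, which takes up GABA (FBgn0039915, chr4:629691-635350), had a log2 fold change of -0.44 (-0.75 to -0.12) in dnmnatOE, -0.15 (-0.45 to 0.16) in wild type and 0.37 (0.05 to 0.69) in background, on 20.2 to 37.2 CPM over the 18 inputs. Without the first 7 dpa library of dnmnatOE, *Gat* stood at -0.61 and was called. Of its exonic bases, 9.98% are shared with an annotated INE-1 transposon copy, so part of its count could be split.

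*repo* and *nrv2* mark several kinds of glia at once. *repo*, the homeodomain factor that nearly all glia of the fly use (FBgn0011701, chr3R:18236192-18239602), had 42.5, 34.4 and 39.3 CPM at 7 dpa in dnmnatOE, against 47.2, 69.3 and 64.3 CPM uninjured. In wild type it had 55.3, 62.4 and 60.4 CPM at 7 dpa, against 53.4, 65.8 and 59.5 CPM uninjured, and in background 71.8, 74.0 and 51.8 CPM at 7 dpa, against 56.0, 56.1 and 54.7 CPM uninjured. The injured and uninjured libraries overlapped in wild type and background and not in dnmnatOE, where the first uninjured library lay close to the injured ones. The log2 fold change was -0.63 ± 0.13 in dnmnatOE, -0.01 ± 0.13 in wild type and 0.25 ± 0.13 in background (SE, adjusted p = 4.21e-05, 0.981 and 0.175 by edgeR with Benjamini-Hochberg adjustment). The dnmnatOE call lay at the threshold: it was -0.52 without the second uninjured library, -0.58 without the third and -0.56 without the second 7 dpa library, none of them called. Of the exonic bases of *repo*, 6.11% are shared with *CG7156*.

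*nrv2*, a beta subunit of the Na+/K+ pump (FBgn0015777, chr2L:6789770-6798862), had 106, 122 and 96.5 CPM at 7 dpa in dnmnatOE, against 191, 209 and 168 CPM uninjured. Wild type had 127, 116 and 127 CPM at 7 dpa, against 131, 153 and 143 CPM uninjured. Background had 153, 144 and 152 CPM at 7 dpa, against 128, 125 and 137 CPM uninjured. The groups did not overlap in any genotype, lower after injury in dnmnatOE and wild type and higher in background. The log2 fold change was -0.81 ± 0.09 in dnmnatOE, which was called, -0.21 ± 0.09 in wild type and 0.20 ± 0.09 in background (SE, adjusted p = 1.89e-11, 0.0489 and 0.0885 by edgeR with Benjamini-Hochberg adjustment).

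*wrapper*, an immunoglobulin-family adhesion protein of glia that wrap neurons (FBgn0025878, chr2R:22379637-22382675), stands for cortex glia. Its libraries overlapped between 7 dpa and uninjured in each genotype, at 8.62 to 20.7 CPM over the 18 inputs. The log2 fold changes were 0.32 (95% interval -0.15 to 0.80) in dnmnatOE, 0.32 (-0.14 to 0.79) in wild type and -0.05 (-0.53 to 0.42) in background, and none was called. Without the third uninjured library of wild type it was 0.63 and called.

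**Figure D2:**
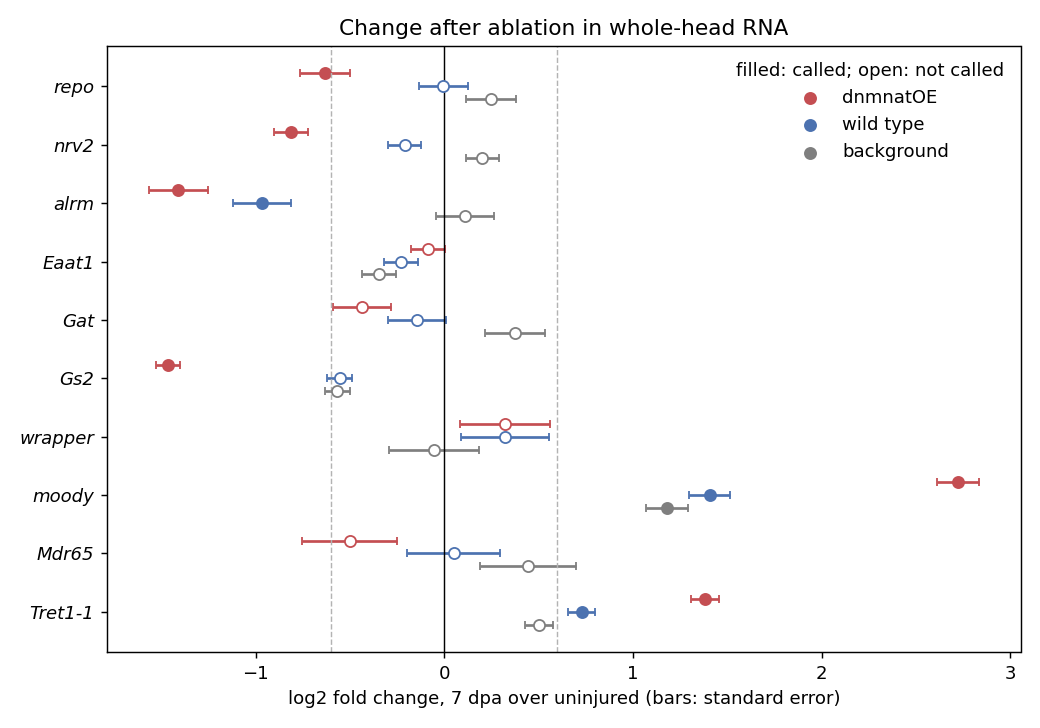
log2 fold change of each glial marker in inputs, 7 dpa over uninjured, for the 3 genotypes. Bars are the standard error, filled points were called, and dashed lines mark the fold threshold of 0.6. *moody* lies at 2.72, 1.41 and 1.18 in dnmnatOE, wild type and background.

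Summed by class, the surface glia genes had 508 to 532 CPM at 7 dpa in dnmnatOE, against 158 to 177 CPM uninjured, 424 to 436 against 234 to 242 CPM in wild type, and 249 to 256 against 148 to 169.8 CPM in background. The astrocyte genes together had 333 to 368 CPM at 7 dpa in dnmnatOE, against 702 to 742 CPM uninjured, 449 to 487 against 637 to 691 CPM in wild type, and 459 to 499.8 against 642 to 666 CPM in background. Both sums separated injured from uninjured libraries in each genotype, in opposite directions. *Gs2* makes up most of the astrocyte sum and *Tret1-1* with *moody* most of the surface sum, so neither stands for all members of its class. Over all 10 genes the sum was 1006 to 1067 CPM at 7 dpa in dnmnatOE, against 1144 to 1148 CPM uninjured, a narrower difference than that of either class.

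**Figure D3:**
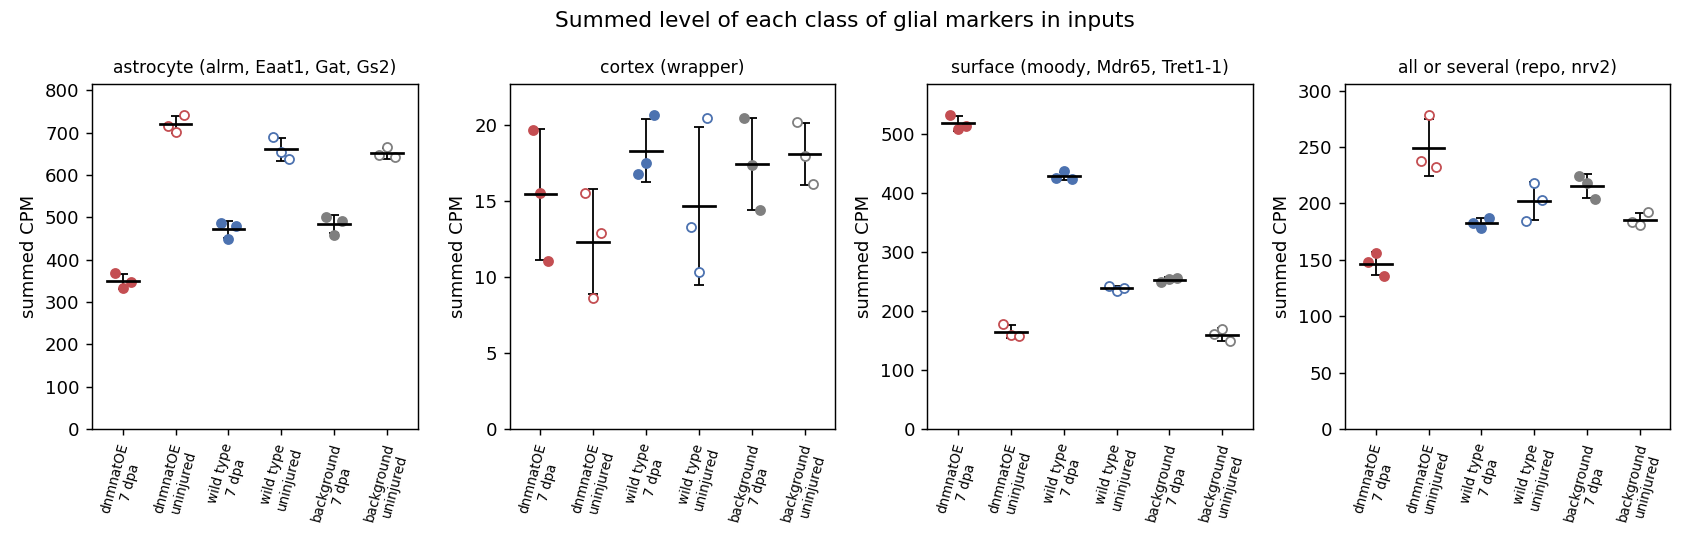
Summed CPM of the glial markers of each class in the 18 inputs. Points are libraries, filled at 7 dpa and open in uninjured heads, with the mean and 1 SD of 3 libraries. The astrocyte sum is lower and the surface sum higher at 7 dpa in each genotype, and the cortex panel holds *wrapper* alone.

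Other cell types moved in the same inputs. Over all genes tested, 26.5% were called higher and 24.2% lower in dnmnatOE, 17.8% and 10.7% in wild type, and 9.99% and 5.25% in background. Of 10 neuronal markers, 10 were called lower at 7 dpa in dnmnatOE, 6 in wild type and 0 in background by edgeR (median log2 fold change -1.46, -0.71 and -0.34), and their summed level was 1064 to 1106 CPM at 7 dpa in dnmnatOE, against 3347 to 3626 CPM uninjured. Of 6 muscle markers, 6 were lower in dnmnatOE, where they summed to 450.2 to 472 CPM at 7 dpa against 1731 to 1778 CPM uninjured, and none was called in wild type or background. Of 6 hemocyte markers, 5 were higher in each genotype, with 3314 to 3524 CPM at 7 dpa against 122 to 132 CPM uninjured in dnmnatOE, 3457 to 3546 against 539.8 to 548 CPM in wild type, and 650.4 to 679 against 165 to 178 CPM in background. Of 10 photoreceptor markers, 7 were lower in dnmnatOE, 3 in wild type and 0 in background. Their sum was lower at 7 dpa in each genotype, with 13366 to 13571 against 32794 to 34038 CPM uninjured in dnmnatOE. It was 19466 to 20104 against 26537 to 27041 CPM in wild type, and 30687 to 32217 against 37080 to 37746 CPM in background. Of 8 fat body markers, 5 rose and 2 fell in dnmnatOE, and their sum was 245422 to 270334 CPM at 7 dpa against 61197 to 68497 CPM uninjured. The fat body sum was also higher at 7 dpa in wild type (139371 to 150200 against 67026 to 69678 CPM) and in background (73211 to 84681 against 61623 to 62074 CPM). None of these markers was at 0 in any input group. Their part in the values of the glial markers was not tested.

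Of 19 further glial genes from a list of known markers, 5 were called higher and 5 lower at 7 dpa in dnmnatOE, 5 and 4 in wild type, and 3 and 2 in background. Over all genes 26.5% were higher and 24.2% lower in dnmnatOE, 17.8% and 10.7% in wild type, and 9.99% and 5.25% in background, so in dnmnatOE the count was near that of any genes. *drpr*, which encodes the engulfment receptor Draper and is also made in hemocytes, had log2 fold changes of 3.25 ± 0.09 in dnmnatOE, 2.12 ± 0.08 in wild type and 1.58 ± 0.08 in background. *Indy*, a citrate transporter, had 2.05 ± 0.09, 0.98 ± 0.09 and 0.50 ± 0.09 in the same order, and *loco*, a regulator of G protein signalling that acts with *moody* at the barrier, had 0.90 ± 0.13, 0.89 ± 0.13 and 0.77 ± 0.13. *Eaat2*, an amino acid transporter, had -1.69 ± 0.08, -0.86 ± 0.07 and -0.47 ± 0.08, and the lipid-binding protein gene *fabp* had -1.49 ± 0.19, -0.98 ± 0.18 and -0.90 ± 0.19. *Obp44a*, of the odorant-binding protein family, had -1.58 ± 0.09, -1.39 ± 0.08 and -1.08 ± 0.08 (SE, 3 libraries against 3 for each value). All of these were called except *Indy* and *Eaat2* in background.

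Whether the response to ablation differed between genotypes was tested as an interaction. For dnmnatOE against wild type, 5 of the 10 were called, where 22.1% of all genes tested were. The change with injury was more positive in dnmnatOE for *moody* by 1.32 ± 0.15 (SE, log2 scale, adjusted p = 3.81e-10) and for *Tret1-1* by 0.65 ± 0.10 (8.50e-07), and more negative for *Gs2* (-0.91 ± 0.09, 6.63e-12), *repo* (-0.63 ± 0.18, 0.00677) and *nrv2* (-0.60 ± 0.12, 0.000112), by edgeR with Benjamini-Hochberg adjustment and 3 libraries in each group. The value of *nrv2* lay on the threshold and that of *repo* near it: with each of the 12 libraries left out in turn, *nrv2* ran from -0.69 to -0.53 and lost its call in 7 of 12 fits, and *repo* ran from -0.78 to -0.52 and lost it in 5. *nrv2* was smallest without the third 7 dpa library of dnmnatOE and *repo* without the second uninjured library of dnmnatOE. *nrv2* was also at -0.59 and not called with DESeq2 and with RLE scaling. For *alrm* the difference between dnmnatOE and wild type was -0.45 (95% interval -0.88 to -0.01) and was not called. *Tret1-1* and *nrv2* differed between the genotypes more in uninjured heads. The mean of *Tret1-1* was 121 CPM in dnmnatOE and 182 in wild type uninjured, and 317 and 302 at 7 dpa. That of *nrv2* was 189 and 142 CPM uninjured, and 108 and 123 at 7 dpa. Neither gene was called between these genotypes at either stage. For *moody* and *Gs2* too, part of the value was present before injury, and their uninjured libraries did not overlap between these genotypes. The mean of *moody* was 28.9 CPM in dnmnatOE and 42.5 in wild type uninjured, and 191 and 113 at 7 dpa. For *Gs2* it was 509 and 446 CPM uninjured, and 184 and 304 at 7 dpa.

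For wild type against background, *alrm* was the 1 transcript of 10 called, where 6.87% of all genes tested were. Its change with injury was more negative in wild type by 1.08 on the log2 scale (log2 difference -1.08 ± 0.22, SE, adjusted p = 0.00026 by edgeR with Benjamini-Hochberg adjustment), and with each library left out it stayed between -1.18 and -0.95 and past the threshold. *nrv2* differed in the same direction by -0.41 ± 0.13 without reaching the fold threshold. The differences of *moody* (0.22, 95% interval -0.08 to 0.53) and *Gs2* (0.01, -0.17 to 0.19) were not called. For *alrm*, part of the difference was present before injury. Its mean was 47.7 CPM in wild type and 31.9 in background uninjured, and 24.4 and 34.5 at 7 dpa.

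Genotypes were also compared at the same stage. In uninjured inputs of dnmnatOE over wild type, 0 of the 10 were called by edgeR, 4 had an unadjusted p under 0.05 and DESeq2 called 0, where 7.54% of all genes were called. *Tret1-1* (-0.58 ± 0.07) and *moody* (-0.56 ± 0.11) stood just under the fold threshold. *moody* was called without the second uninjured library of wild type (-0.61) or the third of dnmnatOE (-0.64), and *Tret1-1* without the third of wild type (-0.60) or the first of dnmnatOE (-0.65). At 7 dpa, 3 of 10 were called between dnmnatOE and wild type, where 13.3% of genes were: *moody* was higher by 0.76 ± 0.10, *Gs2* lower (-0.72 ± 0.07) and *repo* lower (-0.61 ± 0.13, SE, log2 scale, adjusted p = 5.72e-08, 6.11e-13 and 0.000226 by edgeR with Benjamini-Hochberg adjustment). *repo* was at -0.60 with DESeq2 and -0.59 with RLE scaling and lost its call with both, as it did without the second 7 dpa library of wild type (-0.57), the third (-0.60) or the second of dnmnatOE (-0.54).

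Set against background, which has no tagged ribosome and no UAS transgene, wild type differed in *Tret1-1* before the injury. It was higher in uninjured wild type by 0.64 ± 0.07, the 1 call of 10 where 6.52% of genes were called, and at 7 dpa by 0.87 ± 0.07, alongside *moody* at 0.63 ± 0.11, 2 calls of 10 where 14.6% were (SE, log2 scale, adjusted p = 5.69e-10, 2.58e-14 and 3.98e-06 by edgeR with Benjamini-Hochberg adjustment). Without the third uninjured background library *Tret1-1* was at 0.58 and not called. *moody* was at 0.58 without the first 7 dpa library of background and at 0.57 without the second of wild type, not called in either. For dnmnatOE over background, *Gat* was the 1 call of 10 in uninjured heads (0.68 ± 0.15), where 6.52% of genes were called. There *alrm* reached 0.66 without the second uninjured library of background and 0.61 without the first of dnmnatOE, a fit in which *wrapper* was also called at -0.75, and *nrv2* reached 0.62 without the third of dnmnatOE. At 7 dpa, 5 of 10 were called where 33.6% were: *moody* at 1.39 ± 0.11, *Tret1-1* at 0.94 ± 0.07, *alrm* at -0.95 ± 0.16, *repo* at -0.76 ± 0.14 and *Gs2* at -0.72 ± 0.07. These comparisons share libraries with those above and do not add independent evidence. Transgenes and the genetic background they were crossed into cannot be told apart.

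Glial markers were also present in the pulldowns, including those of background flies with no tagged ribosome. There *Gs2* had 277, 313 and 407 CPM at 7 dpa and 501, 366 and 364 CPM uninjured, and *moody* had 113, 128 and 100.1 CPM at 7 dpa and 73.5, 98.9 and 120.2 CPM uninjured. These flies carry no tag, so these values are the level that the pulldown gave without one. For wild type over background, 0 of the 10 were called by edgeR in uninjured pulldowns (1 with an unadjusted p under 0.05, 0 by DESeq2), where 3.01% of the 7213 genes tested were called, and 0 at 7 dpa (0 unadjusted, 0 by DESeq2), where 3.05% were. No marker was called lower in pulldowns with the tag than in those without it, in either genotype, by edgeR. The intervals were wider than in inputs: the standard error of the log2 fold change with injury in dnmnatOE was 0.17 to 1.199 over the 10 genes in pulldowns and 0.07 to 0.25 in inputs, so changes called in inputs could be missed in pulldowns. Counts were lowest for 4 genes: *alrm*, *Gat*, *wrapper* and *Mdr65* had 0 to 91 counts per pulldown library.

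**Figure D4:**
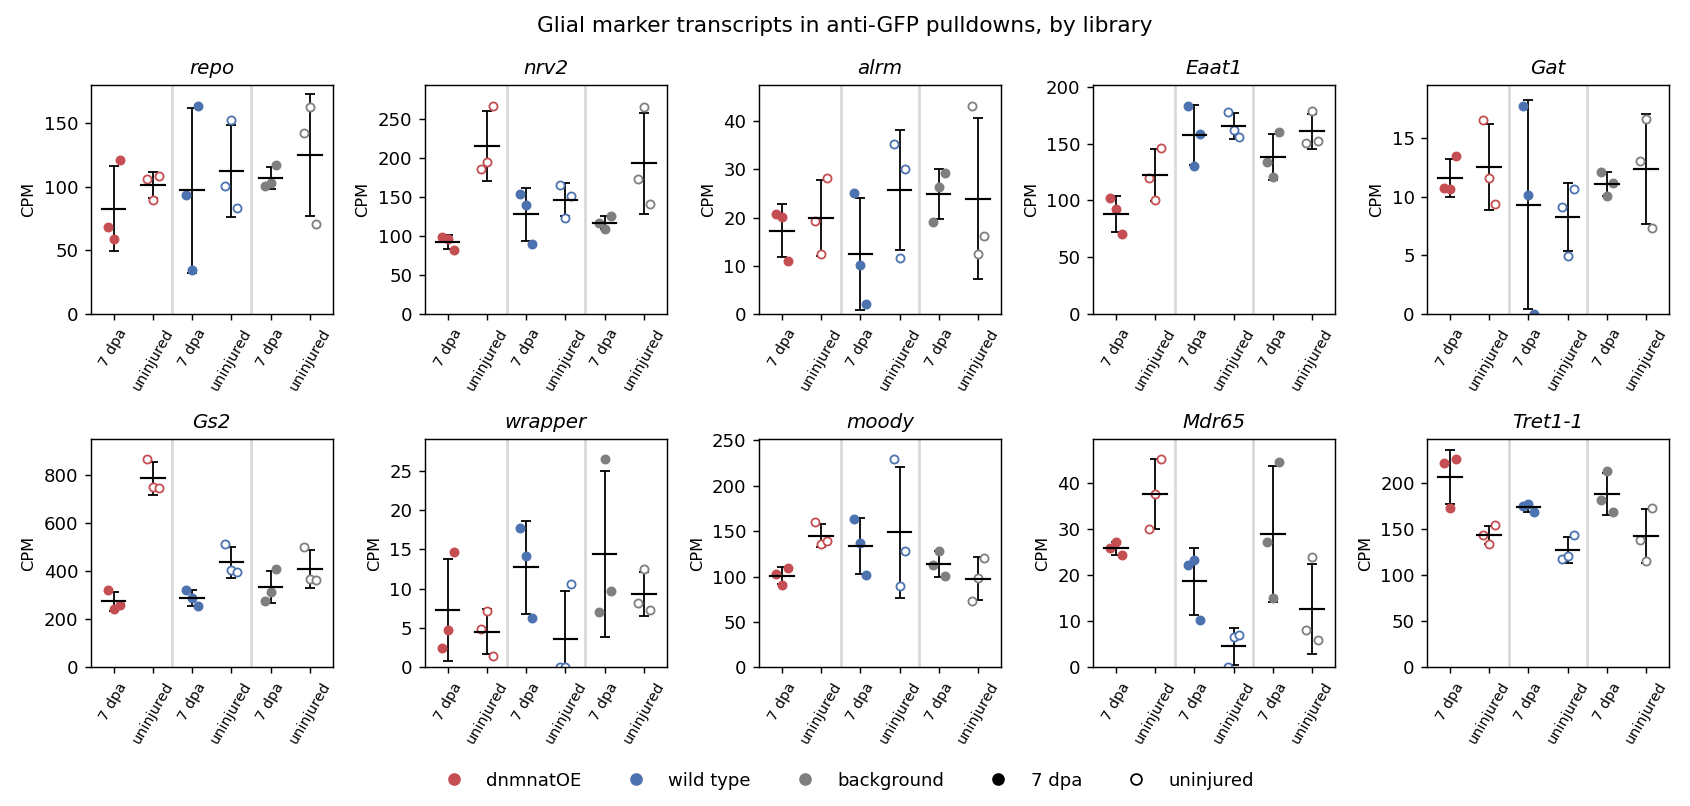
CPM of each glial marker in the 18 pulldown libraries. Points are libraries, filled at 7 dpa and open in uninjured heads, with the mean and 1 SD of 3 libraries. *Gs2* in uninjured dnmnatOE lies at 743 to 864 CPM, above all other groups.

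*Gs2* was the one glial marker whose pulldown level was called in several comparisons. It had 320.3, 244 and 258 CPM at 7 dpa in dnmnatOE, against 864, 750.3 and 743 CPM uninjured. In wild type it had 323, 287 and 254 CPM at 7 dpa, against 511, 403 and 397 CPM uninjured. The 3 uninjured dnmnatOE libraries lay above all others, and the injured groups of dnmnatOE, wild type and background overlapped. The log2 fold change with injury was -1.52 ± 0.17 (SE) in dnmnatOE, -0.61 ± 0.17 in wild type and -0.31 ± 0.17 in background (adjusted p = 4.40e-10, 0.0184 and 0.459 by edgeR with Benjamini-Hochberg adjustment). In wild type the call was lost without the filter on low counts (-0.59) and without the first uninjured library (-0.47), the second 7 dpa library (-0.60) or the third (-0.50). The difference between dnmnatOE and wild type in this change was -0.91 ± 0.24 (adjusted p = 0.0175 by edgeR with Benjamini-Hochberg adjustment), the 1 call of 10 where 3.05% of genes were called, and it lost its call without the first uninjured library of dnmnatOE (-0.84) or the first 7 dpa library of wild type (-0.82).

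Uninjured pulldowns of dnmnatOE had more *Gs2* than those of wild type, by 0.84 ± 0.17, and than those of background, by 0.93 ± 0.17 (SE, log2 scale, adjusted p = 0.000263 and 3.53e-05 by edgeR with Benjamini-Hochberg adjustment), while the uninjured inputs differed by 0.19 ± 0.06 and 0.18 ± 0.06. Against wild type 2 of 10 were called, where 6.64% of genes were, and against background 1 of 10, where 5.55% were. The second call against wild type was *Mdr65*, which had 29.9, 37.6 and 45.1 CPM in dnmnatOE, against 0, 6.63 and 7.10 CPM in wild type. Those wild type values are 0, 4 and 4 counts, and the call (3.07 ± 0.85, adjusted p = 0.0149 by edgeR with Benjamini-Hochberg adjustment) was lost without the first uninjured library of wild type (2.44) and without the third of dnmnatOE (2.94).

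After ablation in pulldowns, 2 of 10 were called in dnmnatOE, where 11.9% of genes were, 1 of 10 in wild type, where 6.22% were, and 0 in background by edgeR (1 with an unadjusted p under 0.05, 1 by DESeq2), where 2.58% were. *nrv2* had 98.2, 95.6 and 81.8 CPM at 7 dpa in dnmnatOE, against 185, 194 and 266 CPM uninjured. These groups did not overlap, and the log2 fold change was -1.23 ± 0.26 (SE, adjusted p = 0.000312 by edgeR with Benjamini-Hochberg adjustment). In background pulldowns *nrv2* was at -0.73 ± 0.26, not called by edgeR and called by DESeq2. Its interaction between dnmnatOE and wild type was -1.02 ± 0.37 and was not called, except at -1.29 without the third 7 dpa library of wild type.

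The rise of *moody* in inputs was not seen in the pulldowns, while the other 2 surface genes were not called there. *moody* had 103, 90.9 and 109.9 CPM at 7 dpa in dnmnatOE, against 159.5, 136 and 139 CPM uninjured, with a log2 fold change of -0.52 (95% interval -1.09 to 0.05). In wild type it was -0.17 (-0.75 to 0.42) and in background 0.23 (-0.36 to 0.83). The input value of *moody* lay outside the pulldown interval in each genotype, at 2.72 in dnmnatOE. *Tret1-1* had log2 fold changes of 0.52 (0.08 to 0.97) in dnmnatOE, 0.44 (-0.03 to 0.92) in wild type and 0.41 (-0.06 to 0.87) in background, none of them called. The input values of wild type (0.73) and background (0.50) lay inside these intervals and that of dnmnatOE (1.38) did not. *Mdr65* had log2 fold changes of -0.54 (-1.95 to 0.87) in dnmnatOE, 2.06 (0.33 to 3.79) in wild type and 1.17 (-0.33 to 2.67) in background, and its injured and uninjured libraries overlapped in background but not in dnmnatOE or wild type. At 7 dpa 0 of 10 were called for dnmnatOE over wild type by edgeR (1 with an unadjusted p under 0.05, 1 by DESeq2), where 2.61% of genes were, and 0 for dnmnatOE over background (1 unadjusted, 1 by DESeq2), where 4.69% were. That gene was *Eaat1* in both, with 102, 92.0 and 70.2 CPM in dnmnatOE, against 184, 131 and 159 CPM in wild type and 134, 121 and 159.9 CPM in background (log2 fold change -0.84 ± 0.25 and -0.65 ± 0.25, SE, adjusted p = 0.0547 and 0.15 by edgeR with Benjamini-Hochberg adjustment). For the difference between wild type and background in the change with injury, 0 of 10 were called by edgeR (0 unadjusted, 0 by DESeq2), where 1.15% of genes were.

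Pulldown and input were compared in one fit of all 36 libraries, averaged over the 6 groups. The study kept part of each lysate as the input, so inputs and pulldowns of a group can share a lysate. The fit counted them as independent, and such a pairing was not tested. The libraries of the 2 kinds also differ in poly-A selection, made for inputs only, so the pulldown itself and the library preparation cannot be told apart. The median log2 fold change over the 9860 genes tested was -0.52, and that of the 10 glial markers was 0.13. By edgeR, 5 of 10 were called, where 57.6% of genes were. *moody* (1.02 ± 0.09) and *repo* (0.96 ± 0.12) were higher in pulldowns, 2 of 10 where 17.5% of genes were, and *Gat* (-1.33 ± 0.20), *wrapper* (-1.03 ± 0.27) and *alrm* (-0.62 ± 0.18) lower, 3 of 10 where 40.1% were (SE, log2 scale, adjusted p = 2.01e-14, 1.06e-09, 7.49e-08, 0.000874 and 0.00265 by edgeR with Benjamini-Hochberg adjustment). The groups were not alike for *moody*: at 7 dpa in dnmnatOE its mean was 101 CPM in pulldowns, against 191 CPM in inputs. In the other groups the pulldown mean lay above the input mean, by least in wild type at 7 dpa (134 against 113 CPM). CPM is scaled within each kind of library, so pulldown and input means are not on a common scale. Pulldown over input was not fitted for single groups. *alrm* lay near the median of all genes, with 53.1% of them above it, and lost its call in 18 of 36 fits with 1 library left out, over a range from -0.74 to -0.50. *wrapper* kept its call in all 36 but moved to -2.32 without the third uninjured wild type pulldown, the one library of that group with any *wrapper* count. *Gs2* (0.25 ± 0.05), *Eaat1* (0.16 ± 0.07), *nrv2* (0.10 ± 0.08), *Mdr65* (0.53 ± 0.22) and *Tret1-1* (-0.14 ± 0.06) were not called, except that *Mdr65* was called in 4 of the 36 fits, at 0.60 to 0.67.

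**Figure D5:**
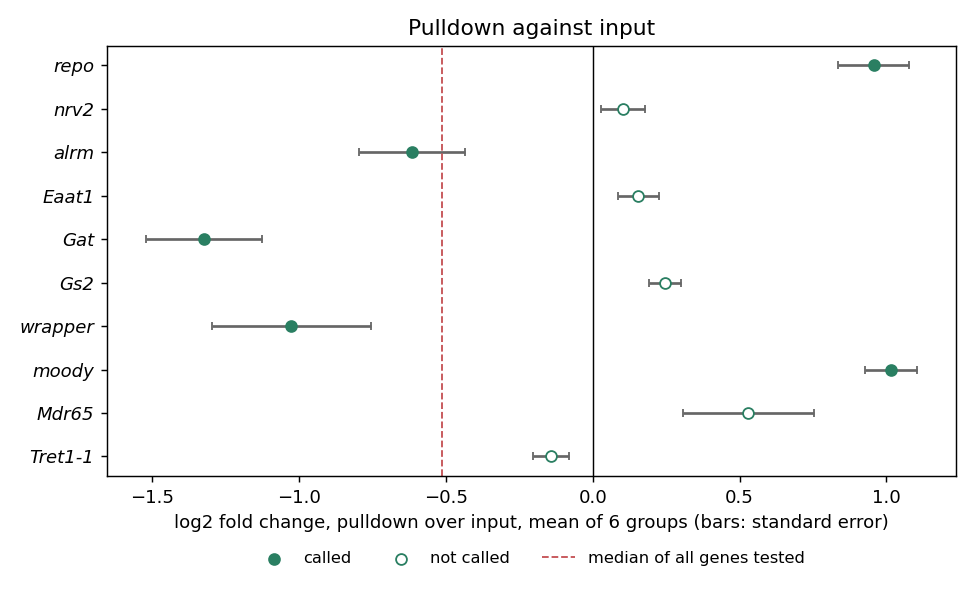
log2 fold change of each glial marker, pulldown over input, averaged over the 6 groups of genotype and injury. Bars are the standard error, filled points were called, and the dashed line is the median of all genes tested, -0.52. *moody* and *repo* lie highest and *Gat* lowest. In dnmnatOE at 7 dpa the mean CPM of *moody* was lower in pulldowns than in inputs, though CPM is scaled within each kind of library.

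To remove what the beads collect without the tag, the pulldown over input difference of background was subtracted from that of each tagged genotype. The result was below 0 and called for *Tret1-1* in uninjured wild type (-0.76 ± 0.22, 3.17% of genes called), in wild type at 7 dpa (-0.88 ± 0.21, 1.34%) and in dnmnatOE at 7 dpa (-0.65 ± 0.21, SE, log2 scale, 10.2%; adjusted p = 0.0364, 0.0165 and 0.0312 by edgeR with Benjamini-Hochberg adjustment). Without the filter on low counts the values were -0.77, -0.89 and -0.66, about as large, but the adjusted p was 0.122, 0.0709 and 0.126 by edgeR and none was called. With 1 library left out they were lost in 10, 7 and 9 of 12 fits, over ranges from -0.84 to -0.56, from -0.90 to -0.74 and from -0.68 to -0.43. *moody* was below 0 in dnmnatOE at 7 dpa (-1.41 ± 0.31, adjusted p = 0.000926), where 2 of 10 were called, and *Gs2* above 0 in uninjured dnmnatOE (0.80 ± 0.18, adjusted p = 0.00342), the 1 call of 10 where 3.75% of genes were called, both by edgeR with Benjamini-Hochberg adjustment and kept with each library left out. *Gs2* in dnmnatOE at 7 dpa (0.60 ± 0.19) was not called but passed in 9 of 12 fits with 1 library left out, at 0.61 to 0.83. The *moody* value goes with the input libraries, in which it was higher at 7 dpa in dnmnatOE than in background (191 ± 4.92 and 72.7 ± 5.12 CPM), while its pulldowns had 101 ± 9.61 and 114 ± 14.1 CPM (SD, n = 3 each). For *Tret1-1* the mean input was also above that of background, at 182 against 117 CPM in uninjured wild type. At 7 dpa it was 302 in wild type and 317 in dnmnatOE, against 166 CPM. The pulldown means were 127 against 142 CPM in uninjured wild type. At 7 dpa they were 173 in wild type and 206 in dnmnatOE, against 188 CPM. The *Tret1-1* pulldowns overlapped those of background in each case.

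Across the 18 inputs, the members did not vary as one group. The log2 CPM of *moody* and *Tret1-1* had a Pearson r of 0.92, and that of *alrm* and *Gs2* one of 0.84, while *Gs2* and *moody* had -0.96 and *alrm* and *moody* -0.83. *wrapper* had values between -0.39 and 0.22 with the other members. These 18 points share 6 groups, their libraries and their depth, so the values describe the differences between groups given above. The genes whose log2 CPM was most like the mean standardized profile of the 10 over the same inputs were *GlcAT-P* (r = 0.90), *lncRNA:CR43148* (0.87), *MYPT-75D* (0.86), *CG31998* (0.86) and *CG44085* (0.86), of 10437 genes compared. Some members ran in opposite directions, so this mean profile need not resemble any single member.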

How the data were processed

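The deposited values were raw read counts per gene in 36 libraries, which the authors made by trimming with Trimmomatic, alignment with Hisat2 to *Drosophila* release 6.43, sorting with Samtools and counting with Htseq-Count; tool versions, counting mode and strand are not given in the sources used here. In each file 5 summary lines that name no gene were left out. Reads that fell on more than one gene made up 1.92 to 3.21% of recorded reads in inputs and 48.5 to 60.3% in pulldowns.

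Gene names, positions and exonic lengths came from Ensembl release 115, which annotates the same Release 6 assembly, and 17559 of 17611 identifiers had a symbol. The promoter motif search planned for the glial genes was not run.

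Counts were fitted with edgeR 4.0.16 (R 4.3.3, TMM scaling, filterByExpr, robust quasi-likelihood), separately for 18 inputs (10437 genes), 18 pulldowns (7213) and all 36 libraries (9860), each with all groups so that they share one estimate of the spread. The thresholds, adjusted p of at most 0.05 and log2 fold change beyond 0.6, follow the study's methods, which used DESeq2. CPM is scaled to the TMM-normalized library size within inputs or within pulldowns. Libraries of 1 group differed by more than counting noise (chi-square per degree of freedom 4.10 to 36.1 in inputs and 7.13 to 32.0 in pulldowns). Each library was counted as 1, although this spread may be technical and does not show that the libraries are biological replicates. Alternatives were DESeq2 1.42.0, RLE scaling, no filter, a replicate block, the adjusted p alone and each library left out in turn. The fits were tested on simulated data, where fewer changes of a given size were recovered in pulldowns than in inputs. The members and gene lists were chosen with earlier results of these data known.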

Additional observations from a re-analysis of the deposited data

Results flagged for a closer look

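In inputs, the change with injury differed between dnmnatOE and wild type by the interaction test for *moody* (log2 difference 1.32 ± 0.15), *Tret1-1* (0.65 ± 0.10), *Gs2* (-0.91 ± 0.09), *repo* (-0.63 ± 0.18) and *nrv2* (-0.60 ± 0.12), and between wild type and background for *alrm* (-1.08 ± 0.22, SE). In pulldowns it differed between dnmnatOE and wild type for *Gs2* (-0.91 ± 0.24). The pulldown over input difference was unlike that of background for *Tret1-1* in uninjured wild type (-0.76 ± 0.22), in wild type at 7 dpa (-0.88 ± 0.21) and in dnmnatOE at 7 dpa (-0.65 ± 0.21), for *Gs2* in uninjured dnmnatOE (0.80 ± 0.18) and for *moody* in dnmnatOE at 7 dpa (-1.41 ± 0.31, SE). Each passed the quasi-likelihood test of edgeR (Benjamini-Hochberg adjusted) and the fold threshold. In inputs, *Tret1-1* and *nrv2* differed between dnmnatOE and wild type more in uninjured than in injured heads. *moody* and *Gs2* differed between them in opposite directions in uninjured and injured heads. So did *alrm* between wild type and background. For *Tret1-1* and *moody*, the groups set against background here differed from it in inputs and overlapped it in pulldowns. Summed levels of neuronal, photoreceptor, hemocyte and fat body markers also differed between injured and uninjured inputs of each genotype. Those of muscle markers differed in dnmnatOE and wild type. The part of these cell types in the values above was not tested.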

How the results depend on the processing

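No called value changed sign under any alternative run. Of 45 calls, DESeq2 kept 43, RLE scaling 42 and the fits without a filter 41. The adjusted p alone kept all 45 by construction, since it only drops the fold threshold from the same fit. The replicate block kept all 45. Within inputs and within pulldowns, equal numbers did not pair libraries of different groups (correlation of residuals -0.03 to 0.04 in inputs and -0.04 to 0.03 in pulldowns over 45 pairs each). A pairing of input with pulldown was not tested. With the adjusted p alone the count of glial markers called in inputs was 4 in background and 6 in wild type after injury, 4 for uninjured dnmnatOE over wild type, 4 for wild type over background at either stage, 4 for uninjured dnmnatOE over background, 2 for the change of wild type over background with injury, and 9 for pulldown over input. In pulldowns DESeq2 called 1 after injury in background, 1 for dnmnatOE over wild type at 7 dpa (also 1 with RLE) and 1 for dnmnatOE over background at 7 dpa. Without the filter the counts fell to 0 for wild type pulldowns after injury, 0 for wild type minus background in pulldown over input at either stage (0 with RLE when uninjured) and 1 for dnmnatOE minus background at 7 dpa. Over all genes DESeq2 called 0.976 to 3.67 times as many as edgeR over 27 comparisons.

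When single libraries were dropped, the count called in inputs after injury was 1 to 2 in background and 3 to 5 in wild type and 5 to 7 in dnmnatOE; 0 to 1 for uninjured dnmnatOE over wild type and 2 to 3 at 7 dpa; 0 to 2 and 1 to 2 for wild type over background, uninjured and at 7 dpa; 1 to 3 for uninjured dnmnatOE over background; and 3 to 5 for the change of dnmnatOE over wild type. In pulldowns it was 0 to 1 in wild type after injury, 1 to 2 for uninjured dnmnatOE over wild type and 0 to 2 for the change of dnmnatOE over wild type. In pulldown over input it was 4 to 6 in the mean of 6 groups, 0 to 1 for wild type minus background at either stage and 1 to 3 for dnmnatOE minus background at 7 dpa. The lower counts of the pulldowns limit what can be seen there for all 10 genes, most for *alrm*, *Gat*, *wrapper* and *Mdr65*. The causes were not tested.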
